A study of Mus musculus with 4 samples.

Results

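The Hox cluster genes of the mouse were followed in ribosome-bound RNA pulled down from the deep cerebellar nuclei. Members were all gene names made of Hox, a cluster letter from a to d and a number, and 39 of the 32532 names in the count tables fit. Hox genes encode homeodomain transcription factors and lie in 4 clusters, and genes that hold the same place in different clusters form a paralogue group, numbered from 1 to 13. In the embryo, low-numbered genes are expressed as far forward as the hindbrain and high-numbered genes only toward the tail. The cerebellum arises from rhombomere 1, the foremost hindbrain segment, which lies in front of the region of Hox expression, so Hox RNA serves as a gauge of tissue from behind that segment.

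The samples form 1 group of 4 libraries from adult mice of the transgenic line Slc17a6-TRAP JX883, without treatment, and each library pools 3 mice. The animals carry an EGFP-tagged Rpl10a ribosomal protein from a transgene named for Slc17a6, a vesicular glutamate transporter gene of glutamatergic neurons. Tagged polysomes were captured with antibodies against EGFP (translating ribosome affinity purification), and capture goes by the tag, whatever a cell's place of origin. Markers of other cell types were found too. Whether their RNA or the Hox RNA came from tagged cells was not tested. The pulldown had no input RNA, other region or other line among the samples used here, so neither enrichment nor a difference between tissues was measured. No label used here gives the strain background, the sex or how the mice were divided among pools, so spreads concern these 4 libraries and may be partly technical.

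Replicates 1 to 4 held between 9621762 and 10988373 counts assigned to genes. Levels are counts per 1000000 assigned counts (CPM), given as mean ± SD over 4 libraries. A gene with no count may still be present at up to 3 counts, which is between 0.273 and 0.312 CPM by library. Slc17a6 itself ranged from 2011 to 2309 CPM, and all 6 markers of glutamatergic nuclear neurons reached 1 CPM in every library.

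Of the 39 Hox genes, 17 had at least 1 count and 22 had none in any library. The names without any count in the whole table made up 42.5% (13828 of 32532), against 56.4% of the Hox genes. No Hox gene reached 1 CPM in all 4 libraries, where 34.5% of all names did. Hoxa2 and Hoxd13 were the 2 Hox genes with a count in every library, against 41.2% of all names. In bulk RNA, few cells that express a gene and little RNA per cell cannot be told apart.

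All Hox genes together held 71 counts in replicate 1, 125 in replicate 2, 23 in replicate 3 and 66 in replicate 4. As summed levels these were 7.38 CPM (exact Poisson 95% interval 5.76 to 9.31), 12.1 CPM (10.1 to 14.5), 2.20 CPM (1.40 to 3.31) and 6.01 CPM (4.65 to 7.64) in the same order. The intervals cover counting error only, and may be too narrow even for that, since reads from amplified molecules are not independent. Replicate 2 was highest and replicate 3 lowest, and their intervals do not overlap, but this pair was picked from these same counts. The mean was 6.93 ± 4.10 CPM (SD, n = 4), which is the sum of 39 genes and not a level of any 1 of them.

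Summed over the libraries, most counts lay in the low-numbered groups and in Hoxd13, but the libraries differed in this. Groups 1 to 4 held 65 of 71, 100 of 125, 12 of 23 and 21 of 66 Hox counts in replicates 1 to 4. Group 13 held 4, 24, 5 and 45, so it held the most in replicate 4. The sums below are over all libraries. Paralogue groups 1 to 4 held 198 of the 285 Hox counts, from 11 of their 12 genes. Groups 5 to 12 held 9 counts from 4 of their 23 genes, and 1 gene, Hoxd13, held 77 of the 78 counts of group 13. By cluster, the Hoxa genes held 106 counts, Hoxb 69, Hoxc 5 and Hoxd 105. Of the 9 Hoxc genes, 4 had a count and none had more than 2.

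**Figure D1:**
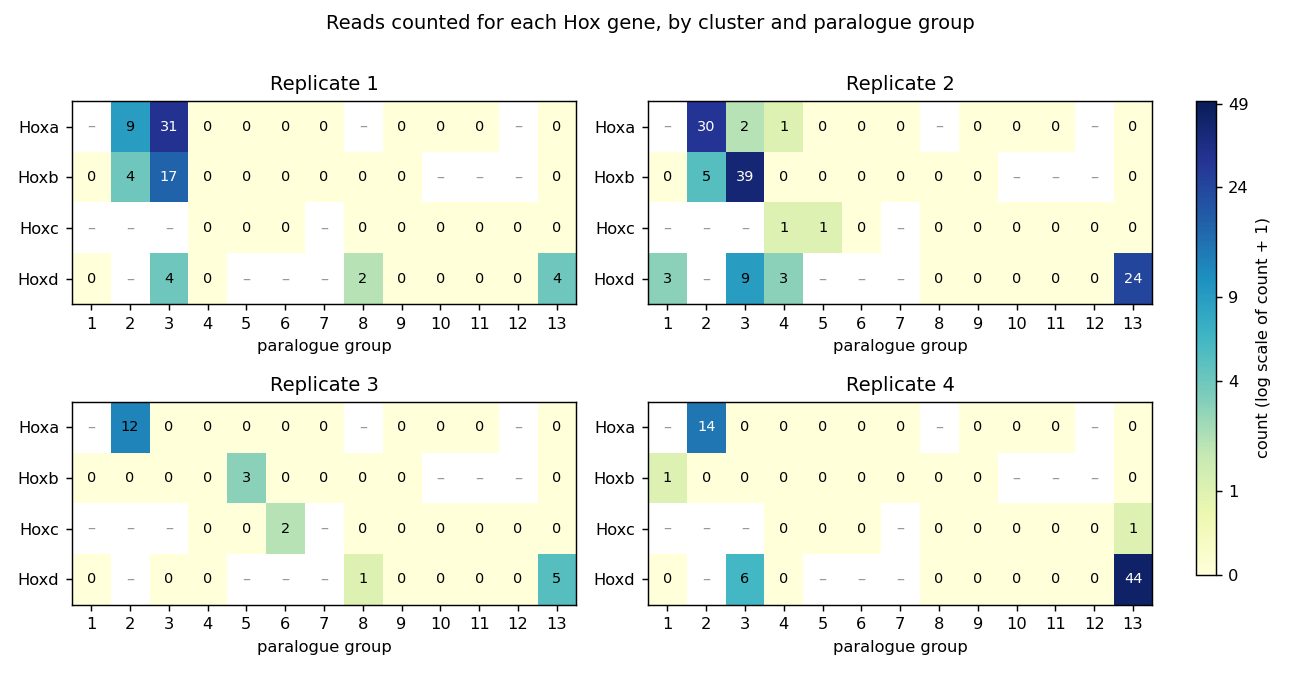
Counts of each Hox gene in each of the 4 libraries, with the clusters as rows and the paralogue groups 1 to 13 as columns. Colour follows the logarithm of the count plus 1, and a dash marks a place with no gene name in the tables or with a gene not reported here. Summed over the libraries, counts gather in groups 1 to 4 and in Hoxd13, with 9 counts in groups 5 to 12.

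Hoxa2 and Hoxd13 had a count in every library, and Evx2 is the gene next to Hoxd13, so the stretches just before their starts are shown. Each is 250 bases, ending at the base before the RefSeq start on GRCm38.p6, the same build as mm10. Capitals mark 3 motifs on either strand. The first is TATAAA, the core of a TATA box. The second is CCAAT, a common promoter element. The third is TGATNNAT, a form of site known to be bound by Hox and Pbx proteins together. Evx2 encodes an even-skipped type homeodomain protein.
Hoxa2 (chr6:52164832-52165081, minus strand): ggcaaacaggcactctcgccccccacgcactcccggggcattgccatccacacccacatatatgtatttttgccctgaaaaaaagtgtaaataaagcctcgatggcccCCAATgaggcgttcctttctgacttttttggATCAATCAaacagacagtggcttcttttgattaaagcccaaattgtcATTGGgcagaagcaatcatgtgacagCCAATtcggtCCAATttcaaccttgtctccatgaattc
Hoxd13 (chr2:74667975-74668224, plus strand): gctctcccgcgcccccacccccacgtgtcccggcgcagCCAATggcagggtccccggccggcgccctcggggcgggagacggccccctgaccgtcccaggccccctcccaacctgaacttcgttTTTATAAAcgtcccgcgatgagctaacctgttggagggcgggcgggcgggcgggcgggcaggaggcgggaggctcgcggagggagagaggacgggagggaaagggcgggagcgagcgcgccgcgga
Evx2 (chr2:74659558-74659807, minus strand): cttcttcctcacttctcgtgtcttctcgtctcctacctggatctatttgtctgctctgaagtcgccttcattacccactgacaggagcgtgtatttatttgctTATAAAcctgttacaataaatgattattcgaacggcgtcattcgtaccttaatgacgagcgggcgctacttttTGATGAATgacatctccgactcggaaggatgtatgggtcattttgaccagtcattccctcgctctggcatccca

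The 3 stretches differ in composition. That of Hoxd13 is 74.4% G or C and holds 31 CG pairs, that of Evx2 is 45.6% with 14 pairs and that of Hoxa2 is 46.4% with 6 pairs, and the median over 32851 promoter stretches of this length is 6 pairs. TATAAA occurs in the Hoxd13 stretch as 2 overlapping matches, 1 on each strand (TTTATAAA), and once in that of Evx2, and 12.4% of all stretches hold it. CCAAT occurs 4 times in the Hoxa2 stretch and once in that of Hoxd13, and 33.8% of all stretches hold it. TGATNNAT occurs once in the stretches of Hoxa2 and Evx2, and 7.68% of all stretches hold it. These matches are descriptions of letters, and binding was not measured.

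In group 1, Hoxd1 had 3 counts in replicate 2 and none elsewhere. Hoxb1, the identity gene of rhombomere 4, had 1 count, in replicate 4.

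Group 2 was led by Hoxa2, the Hox gene with the foremost limit of expression, at the border of rhombomeres 1 and 2. Its position is chromosome 6, 52162417 to 52164831, minus strand. Hoxa2 had 9, 30, 12 and 14 counts in replicates 1 to 4, which are 0.935, 2.91, 1.15 and 1.27 CPM, a mean of 1.57 ± 0.91 CPM. Replicate 2 was highest, and the other 3 libraries lay close together with overlapping counting intervals. The interval of replicate 2 (1.96 to 4.16 CPM) overlapped those of replicate 3 (0.594 to 2.01) and replicate 4 (0.697 to 2.14). It lay above that of replicate 1 only (0.428 to 1.78 CPM). Hoxb2, a gene of rhombomeres behind the second, had 4 counts in replicate 1, 5 in replicate 2 and none in replicates 3 and 4.

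Group 3, whose genes pattern the caudal hindbrain and the pharyngeal arches, held the most counts, 108 in all. They were split between libraries, with 52 in replicate 1, 50 in replicate 2, none in replicate 3 and 6 in replicate 4. Hoxa3, known for its part in thymus and parathyroid formation, had 31 counts (3.22 CPM, 95% interval 2.19 to 4.57) in replicate 1 and 2 counts (0.194 CPM, 0.0235 to 0.701) in replicate 2. Replicates 3 and 4 had none.

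Hoxb3 was higher in replicate 2 than in replicate 1, though the counting intervals of these 2 libraries overlap. It had 17 counts (1.77 CPM, 1.03 to 2.83) in replicate 1 and 39 counts (3.78 CPM, 2.69 to 5.17) in replicate 2, and again none in replicates 3 and 4. The 2 libraries with the gene and the 2 without were told apart by these same counts, and the intervals cover counting error only. Hoxd3 was found in 3 libraries, with 4, 9 and 6 counts in replicates 1, 2 and 4 (0.416, 0.873 and 0.546 CPM) and none in replicate 3. These genes lie at 52169062 to 52213336 on chromosome 6, at 96323326 to 96347930 on chromosome 11 and at 74711927 to 74748442 on chromosome 2, in the order Hoxa3, Hoxb3 and Hoxd3.

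Counts of the group 3 genes are uncertain, because their exons overlap those of other genes. Reads that fit 2 genes of the annotation used for counting are usually left out of such counts. That annotation and its strand setting are not known, so whether reads were lost or gained at these overlaps is not known either. Hoxa3 shares 13.3% of its exon bases with antisense names of the count tables, and 27.1% with any gene of GENCODE release 21 for mouse. Hoxb3 shares none with names in the tables but 52.9% with any gene of that release, among them Hoxb3os on the opposite strand. Hoxd3 shares 9.26% on its own strand, with Hoxd4, and 8.78% on the other, and 62.8% with any gene of the release. Outside group 3, Hoxd4 shares 52.3% and Hoxb2 27.3% with any gene. The exons of Hoxd13 overlap no gene, and Hoxa2 overlaps none in the tables and 15.0% with any gene. How the reads of each pair were divided was not tested.

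Group 4 had 5 counts, all in replicate 2, from Hoxd4 (3), Hoxa4 (1) and Hoxc4 (1), and Hoxb4 had none. In groups 5 to 12 the counts were 3 for Hoxb5 and 2 for Hoxc6, both in replicate 3, and 1 for Hoxc5 in replicate 2. Hoxd8 had 2 counts in replicate 1 and 1 in replicate 3. No gene of groups 7, 9, 10, 11 and 12 had a count in any library.

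**Figure D2:**
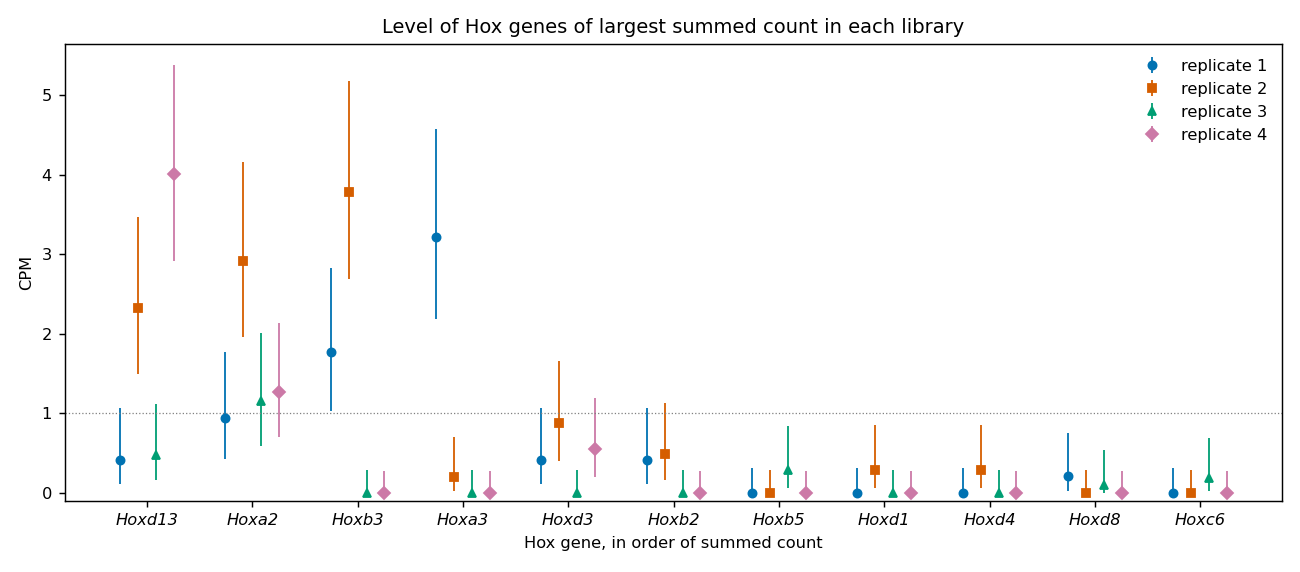
Level in CPM of 11 Hox genes among the 12 of largest summed count, with 1 point per library and exact Poisson 95% intervals that cover counting error only. For a count of 0 the bar ends at the level of 3 counts. The dotted line is 1 CPM. Hoxb3 and Hoxa3 have counts in replicates 1 and 2 and none in replicates 3 and 4, while Hoxd13 is highest in replicate 4, at 4.0 CPM.

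Hoxd13, which shapes digits and the genital region at the tail end of the embryo, was found in every library. It had 4, 24, 5 and 44 counts in replicates 1 to 4, or 0.416, 2.33, 0.479 and 4.0 CPM, with 95% intervals of 0.113 to 1.06, 1.49 to 3.46, 0.156 to 1.12 and 2.91 to 5.38 CPM. Replicates 2 and 4 were high and replicates 1 and 3 low. The intervals of the high and the low libraries did not overlap, but they cover counting error only, and the split was read from these same counts. Over all genes, pairs of libraries differed beyond counting error (chi-square over degrees of freedom between 32.9 and 119). The mean was 1.81 ± 1.71 CPM. The other 15 genes of groups 9 to 13 held 1 count together, that of Hoxc13 in replicate 4.

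Hoxd13 stood beside a gap in the Hoxd cluster. Hoxd12, Hoxd11, Hoxd10 and Hoxd9, its next neighbours on chromosome 2, had no count in any library, and counts were found again from Hoxd8 on. Hoxd13 lies at 74668310 to 74671599 on the plus strand. On its other side Evx2, at 74652991 to 74659557 on the minus strand, starts 8.75 kb away, and the 2 genes point away from each other. Evx2 had 2, 65, 39 and 34 counts in replicates 1 to 4, which are 0.208, 6.31, 3.74 and 3.09 CPM.

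Evx2 and Hoxd13 were both low in replicate 1 and high in replicates 2 and 4. They parted in replicate 3, where Evx2 had 39 counts and Hoxd13 had 5. Per exon kilobase (the CPM divided by exon length), Evx2 stood at 0.796 ± 0.598 and Hoxd13 at 0.728 ± 0.690, and their ranges over libraries overlap. Evx1, the matching gene beside Hoxa13 and a factor of ventral spinal interneurons, had 10, 41, 6 and 6 counts, or 1.04, 3.98, 0.575 and 0.546 CPM. Hoxa13, 52.6 kb from the start of Evx1, had none.

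**Figure D3:**
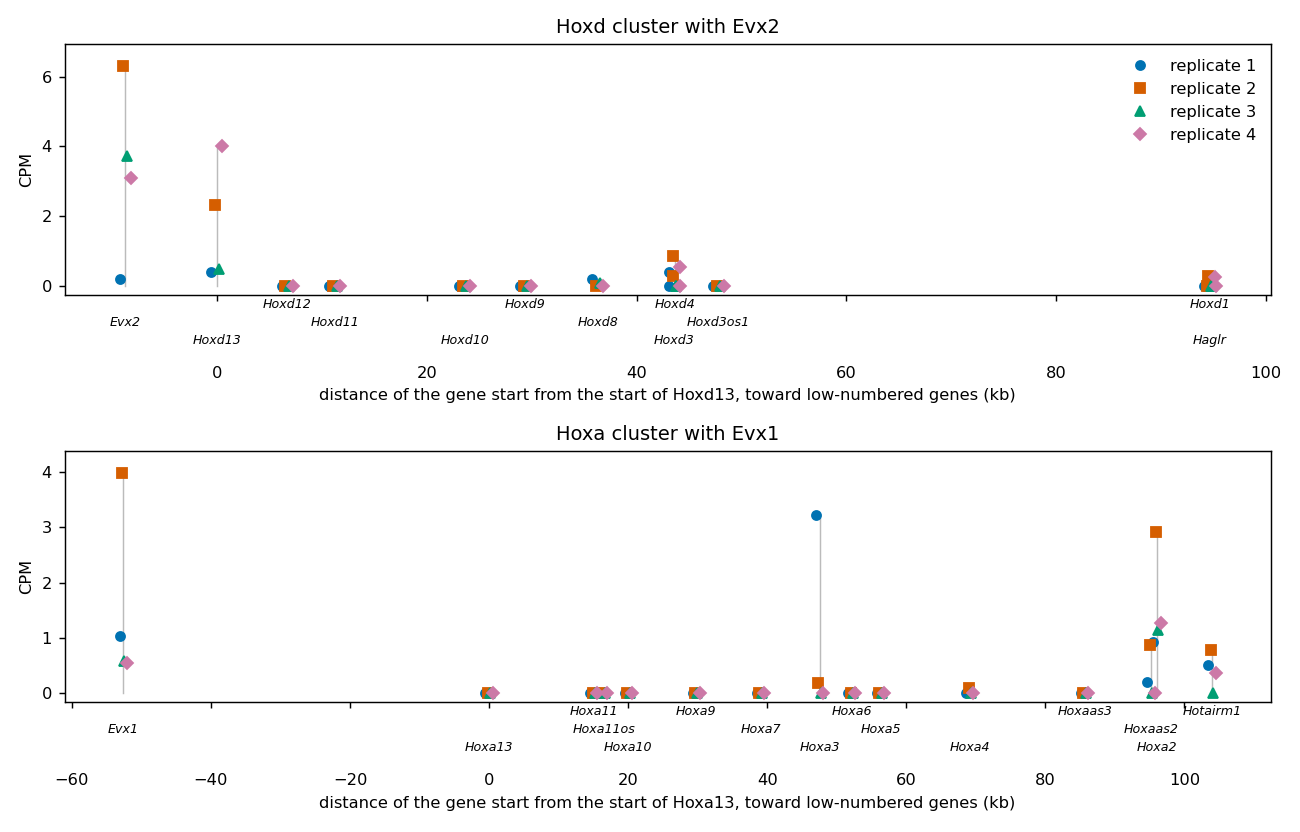
Level in CPM of genes of the Hoxd cluster with Evx2 and of the Hoxa cluster with Evx1, placed by the distance in kb of each gene start from that of Hoxd13 or Hoxa13, with 1 point per library, so that points at 0 cover each other. Evx2 and Hoxd13 stand beside the empty stretch from Hoxd12 to Hoxd9, and Hoxa3 is high in replicate 1 and Hoxa2 in replicate 2.

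Genes just outside the Hoxd cluster were found in every library. Lnp, beyond Evx2, stood at 148 ± 12.9 CPM, and Mtx2, a mitochondrial import gene beyond Hoxd1, at 39.2 ± 17.8 CPM. This was not so for every cluster. Beside Hoxb, Ttll6 and Calcoco2 had no count, Skap1 had 8, 2, 0 and 0 in replicates 1 to 4, and Snx11 had counts in every library. Of the 17 other transcripts listed for the clusters, 12 had no count, where 42.5% of all names had none. Among the 12 were the noncoding RNAs Hotair and Hottip and all 6 microRNA genes, whose exon lengths run from 68 to 110 bases. Apart from Evx1 and Evx2, counts were found for Hotairm1 (5, 8, 0 and 4 in replicates 1 to 4), a noncoding RNA of the Hoxa cluster, for Hoxaas2 (2, 9, 0 and 0), and for Haglr (3 counts in replicate 4). Hotairm1 and Hoxaas2, like the group 3 genes, were without a count in replicate 3.

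Per exon kilobase the order of the Hox genes began with Hoxa2 at 0.883 ± 0.511, Hoxd13 at 0.728 ± 0.690, Hoxb3 at 0.326 ± 0.424, Hoxa3 at 0.142 ± 0.263 and Hoxd3 at 0.109 ± 0.0862 CPM per kb. In all 16 neighbouring pairs of this order the ranges over libraries overlapped. From Hoxb3 down this had to be so, since the higher gene of each pair had a library without a count. Hoxa2 exceeded Hoxd13 in 3 of 4 libraries, and Hoxd13 exceeded it in replicate 4. Below Hoxd3 every gene had counts in at most 2 libraries.

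To ask whether a library differed from the other 3, all genes were fitted together with edgeR's quasi-likelihood test. No Hox gene passed the planned filter, which needs about 10 counts in each library, so none of the 39 was among the 11227 genes tested. In that fit the calls made up 0.00891% of tested genes in replicate 1, 0% in replicates 2 and 3 and 0.0534% in replicate 4. With no filter, the 17 Hox genes with a count were tested among 18704 genes, where 0.171%, 0%, 0.46% and 2.22% of genes were called in replicates 1 to 4, and no Hox gene was called.

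The smallest adjusted p in that fit was 0.334, for Hoxb3 in replicate 4 against the others (edgeR, unadjusted p = 0.0471), the sole Hox value under 0.05 before adjustment. For Hoxd13 the log2 fold change of replicate 4 over the others was 2.02 with a standard error of 1.63 (edgeR, adjusted p = 0.625). For Hoxa3 in replicate 1 it was 5.24 with a standard error of 2.84 (adjusted p = 0.982), and for Hoxa2 in replicate 2 it was 1.36 with a standard error of 2.36 (adjusted p = 0.9999). DESeq2 with no filter called 0.183%, 0.0267%, 0.598% and 3.1% of genes in replicates 1 to 4 and again no Hox gene, but it gave an adjusted p to only 3, 17, 4 and 3 of the 17 Hox genes, and the others could not be called. Its adjusted p for Hoxb3 was 0.497 in replicate 3 and 0.234 in replicate 4, where Hoxb3 was under 0.05 before adjustment. A filter that asks for the level in 1 library only kept Hoxa2, Hoxa3, Hoxb3 and Hoxd13, and called 0.0199%, 0%, 0% and 0.0464% of genes and none of these 4. The fits compare libraries, leave 2 residual degrees of freedom and do not show that the libraries are alike.

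Genes of proteins that bind DNA together with Hox factors were found in every library. Of the 9 TALE homeodomain cofactor genes, 8 reached 1 CPM in every library. Meis2 stood at 342 ± 91.2, Pbx3 at 109 ± 64.7 and Pknox2 at 48.3 ± 28.8 CPM. These factors also act without Hox proteins, and Meis2 is a marker of glutamatergic nuclear neurons. In the planned fit none of the list was called in any library. There Pbx3 and Pknox2 had log2 fold changes of 1.39 and 1.40 in replicate 4. Only with no filter, where 2.22% of genes were called in replicate 4, were Pbx3 and Pknox2 called higher in that library. Their log2 fold changes with no filter were 1.42 and 1.43, so the call depends on the filter. Pbx4 had a log2 fold change of -2.95 there (adjusted p = 0.391) and Pbx2 of -0.82 (adjusted p = 0.512), and neither was called.

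Of 8 genes that set Hox expression in the hindbrain and the tail, 3 reached 1 CPM in every library. Zfp703 stood at 15.9 ± 4.59 and Gmnn at 3.39 ± 3.96 CPM, Egr2 had 15, 1, 0 and 0 counts, and Cdx1, Cdx2 and Cdx4, the tail-end activators of Hox genes, had no count.

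Regulators that hold Hox genes silent or active were widely found. Of 23 Polycomb and trithorax genes, 21 reached 1 CPM in every library, led by Kmt2a at 559 ± 51.9, Ash1l at 404 ± 57.3, Phc3 at 192 ± 49.7 and Kmt2d at 176 ± 41.8 CPM. Of 15 genes of the retinoic acid pathway, which induces low-numbered Hox genes in the embryo, 6 did, led by Rxra at 61.3 ± 21.5, Rara at 29.4 ± 9.07, Aldh1a1 at 21.3 ± 9.34 and Rxrb at 13.9 ± 3.83 CPM. No gene of these lists was called in any library, with or without the filter.

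The Hox level was set beside genes of other regions in the same libraries. Of 9 genes of the isthmus and rhombomere 1, 3 reached 1 CPM in every library, with Pax5 at 18.9 ± 10.7, En2 at 16.1 ± 4.43 and En1 at 12.1 ± 11.8 CPM, and Pax2 followed at 3.23 ± 3.48 CPM. Their summed level ran from 36.3 to 61.8 CPM, against 2.20 to 12.1 CPM for the Hox sum, and Gbx2 and Fgf8 were at 0. Of 7 forebrain and midbrain genes none reached 1 CPM in every library, with a summed level of 1.0 to 8.82 CPM. Otx2 led at 3.94 ± 2.35 CPM, then Dmbx1 at 1.58 ± 1.11, Otx1 at 0.534 ± 1.07 and Six3 at 0.104 ± 0.208 CPM, and Emx1 and Emx2 were at 0.

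Markers listed for brainstem neurons varied more, and whether they mark only cells outside the cerebellum or behind rhombomere 1 was not tested. The 10 glycinergic, monoaminergic and cholinergic markers summed to 12.2, 119, 21.4 and 58.2 CPM in replicates 1 to 4, 2 of 10 reached 1 CPM in every library, and each had a count in at least 1 library. Replicate 2 was highest for these markers and for the Hox sum. Replicate 1 was lowest for the markers yet second for the Hox sum. Slc5a7 and Chat, the choline transporter and the enzyme of acetylcholine synthesis, had 21, 369, 40 and 195 and 0, 106, 18 and 44 counts in replicates 1 to 4. Slc6a2, the noradrenaline transporter, had 6, 144, 36 and 144 counts. Slc6a5, the glycine transporter of glycinergic neurons, had another order, with 17, 19, 103 and 0 counts. With no filter, Dbh, of noradrenaline synthesis, was called lower in replicate 3 (edgeR, adjusted p = 0.0092), where it had 0 counts against 10, 75 and 210. The part of such neurons in the Hox counts was not tested.

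**Figure D4:**
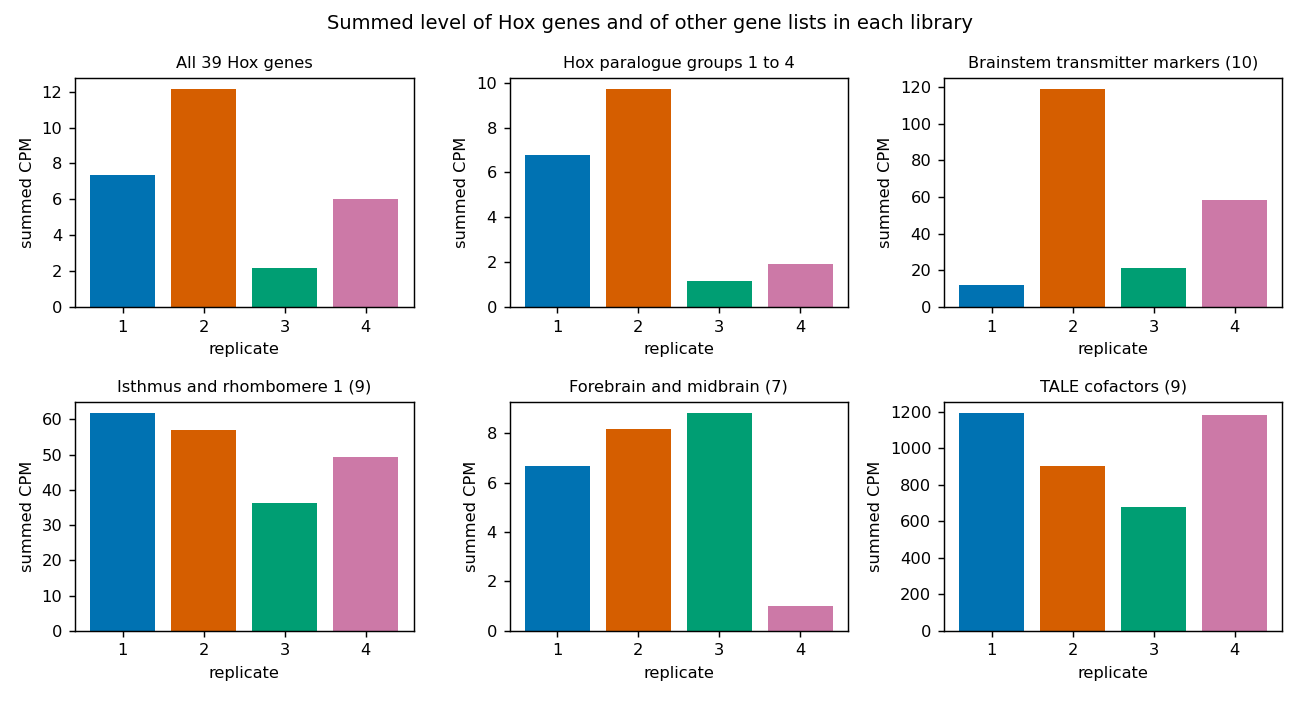
Summed CPM of all 39 Hox genes, of Hox paralogue groups 1 to 4 and of 4 other gene lists in each library, each panel with its own axis from 0. The Hox sum and the brainstem markers are both highest in replicate 2, while replicate 1 is second for the Hox genes and lowest for the markers.

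Hox genes are also expressed in blood and vessel cells, so their markers were read in the same libraries. Blood markers summed to 2.40 to 7.37 CPM, with 0 of 4 at 1 CPM in every library. Microglia markers summed to 3.85 to 11.5 CPM with C1qa at 0 and 1 of 6 at that level, and endothelium and pericyte markers to 10.6 to 34.5 CPM with 2 of 6. Among the blood markers, Ptprc, a gene of all white blood cells, had 46, 3, 0 and 0 counts in replicates 1 to 4. The red cell genes followed other orders, with 0, 11, 12 and 18 counts for Hba-a2, 12, 19, 13 and 7 for Hbb-bs and 1, 10, 0 and 56 for Alas2. Granule cell markers summed to 449 to 1073 and Purkinje cell markers to 1367 to 3676 CPM, with 6 of 6 and 5 of 6 at 1 CPM throughout. Astrocyte markers summed to 106 to 263 and oligodendrocyte markers to 365 to 973 CPM, with 4 of 5 and 5 of 5. The part of these cells in the Hox counts was not tested.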

How the data were processed

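The deposited files hold raw counts per gene name, 1 file per library. Per the submitters' processing notes, STAR 2.0.0e, HTSeq and mm10 were used. No source used here gives the annotation, the strand setting or the library kit. The summed gene counts were 9621762 in replicate 1, 10306407 in replicate 2, 10436291 in replicate 3 and 10988373 in replicate 4. The 5 summary rows of the counting program were left out of totals and tests and made up 31.3, 40.5, 43.7 and 40.3% of all counted reads. No library was a copy of another (chi-square over degrees of freedom between 32.9 and 119 for pairs, over genes with at least 10 counts).

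CPM was computed over all 32532 names. On that build, GENCODE release 21 for mouse gave all 39 members a position and an exon length. Promoter stretches are from RefSeq, whose table held 22 of the 39. For each library, a contrast with the remaining 3 was fitted in edgeR 4.0.16 under R 4.3.3 (TMM, filterByExpr with 1 group, robust glmQLFit, glmQLFTest), with Benjamini-Hochberg adjustment over all genes tested and a threshold of 0.05, two-sided. Standard errors are the fold change over the root of F. The fit was tested on simulated data whose changed genes had means above that of any Hox gene, so it says nothing about Hox levels. Intervals are exact Poisson (SciPy 1.17.1). Named with values are the 12 members of largest count, and from each list the 4 genes of highest CPM. A few genes under this rule are not reported here, but stay in each count and sum over a list. Evx1, Evx2 and the neighbours of the clusters, the genes called with no filter, Egr2, the brainstem markers, Pbx2, Pbx4 and Ptprc were picked out after their values were seen. Members and lists were chosen with earlier results of these data known. Alternatives were DESeq2 1.42.0, RLE scaling, no filter, totals without Rn45s, values per exon kilobase and leaving out each library. A filter set by the contrast, DESeq2 with no filter and a Hox sum without Hoxd13 were added after seeing the data.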

Additional observations from a re-analysis of the deposited data

Results flagged for a closer look

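For 14 of 44 values checked over the 4 libraries, 1 library lay far from the other 3, by Dixon's ratio of its gap to the whole range. Chance flags about 1 in 20 such groups, and a gene counted in 1 library only always has a ratio of 1. Of all names with a count, whatever their level, 11.8% had it in 1 library only. That was so for 10 of the 17 Hox genes with a count (58.8%). Among them were Hoxd1, Hoxd4, Hoxa4, Hoxc4 and Hoxc5 for replicate 2, Hoxb5 and Hoxc6 for replicate 3, and Hoxb1 and Hoxc13 for replicate 4, and the counts of those named were from 1 to 3. Haglr, with 3 counts in replicate 4, also had a ratio of 1. Hoxa3 was far higher in replicate 1, at 3.22 CPM against 0.194, 0 and 0 CPM (ratio 0.94). Evx1 was far higher in replicate 2, at 3.98 CPM against 1.04, 0.575 and 0.546 CPM (ratio 0.856). The summed level of the granule cell markers was far higher in replicate 3, at 1073 CPM against 449, 544 and 456 CPM (ratio 0.848).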

How the results depend on the processing

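No Hox gene was called in any of 40 fits of 1 library against the others, but a Hox gene was tested in only 15 of these, so most say nothing about Hox genes. The filter set by the contrast tested 4 of them (smallest adjusted p from edgeR 0.418, for Hoxb3 in replicate 4). The number of Hox genes at 1 CPM in every library was 0 and ranged from 0 to 1 when 1 library was left out, the 1 being Hoxa2 without replicate 1, where it had 9 counts. The number with a count in every library ranged from 2 to 3 and the number without any from 22 to 28. The summed Hox level ranged from 5.2 CPM without replicate 2 to 8.5 CPM without replicate 3. It was 7.69 CPM with Rn45s out of the totals, 6.90 CPM with TMM sizes and 5.12 CPM without Hoxd13. Where most counts are under 10, depth limits what can be told: a gene without counts may be present at up to 0.312 CPM in replicate 1. No paired analysis was possible because the series has 1 group.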
